A study of Mus musculus with 18 samples.

Results

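The ADAM, ADAMTS and MMP metalloproteases and their TIMP inhibitors were followed here across brain, retina and choroid of the mouse. The members are the genes whose symbol in the deposited tables starts with Adam, Adamts, Adamtsl or Mmp followed by a number, together with Timp1, Timp2 and Timp4. They came to 50 of the 14411 genes listed in at least 1 of the 3 tables, namely 15 ADAM, 14 ADAMTS, 5 ADAMTS-like, 13 MMP and 3 TIMP genes. Brain had 47 members listed, Retina 32 and Choroid 16, and 12 members stood in all 3 tables.

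Each tissue gave 3 Positive and 3 Input libraries, 18 in all. All animals carried Cdh5(PAC)-cre/ERT2 and NuTRAP and were given tamoxifen. In Cdh5(PAC)-cre/ERT2 mice, a Cre recombinase that tamoxifen switches on is driven by regulatory sequence of Cdh5, the gene of vascular endothelial cadherin. NuTRAP is a reporter allele that, once recombined, gives the cell an EGFP-tagged ribosomal protein, so that an antibody to GFP pulls down the ribosomes of recombined cells with the RNA they hold. The Positive fraction is this pulled-down RNA and the Input fraction is RNA of the same homogenate set aside before the antibody was added. There were no mice without Cre and no mice without tamoxifen among the samples analysed here, so every group shares both alleles and the drug. The sources used here name neither age, sex nor strain background of the mice, and do not state how many animals stand behind a library.

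ADAM proteins sit in the cell membrane and cut the outer part off neighbouring membrane proteins, a step called shedding. ADAMTS proteins are secreted and cut large matrix proteoglycans or trim procollagens, while ADAMTS-like proteins lack the protease domain and bind fibrillin microfibrils. MMPs cut matrix proteins, either as secreted enzymes or as membrane-type enzymes anchored at the surface, and TIMPs block their active site. In vessels these families are known for basement membrane turnover, for shedding of Notch and cadherins and for sprouting.

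Totals over the listed genes were 713733 to 10031274 expected counts in Choroid libraries, 12325658 to 36157140 in Retina libraries and 28128866 to 43219831 in Brain libraries, with Choroid Positive 2 the shallowest. The members took 0.203% to 0.275% of the listed counts in Choroid Positive libraries, 0.126% to 0.165% in Retina Positive libraries and 0.232% to 0.248% in Brain Positive libraries. The label of the pull-down was checked on 10 endothelial markers. All 10 were higher in Positive in Brain and in Choroid and 9 of 10 in Retina, with summed levels of 4770 to 5276 normalised counts scaled to library size (CPM) in Brain Positive against 120 to 146 CPM in Brain Input. In Choroid the sums were 13079 to 17223 CPM in Positive against 1508 to 2689 CPM in Input, and Retina Input had 218 to 263 CPM. Most of the Retina Input sum was Kdr, the marker that did not pass in Retina. Kdr averaged 264 ± 112 CPM in Retina Positive and 155 ± 17.4 CPM in Retina Input (SD, n = 3 each). Its log2 difference there was 0.77 (edgeR adjusted p = 0.0615). The median log2 difference of the 10 markers was 5.26 in Brain, 6.41 in Retina and 2.83 in Choroid. Retina Positive 3 had a summed endothelial level of 5345 CPM, against 2633 and 2767 CPM in the other Retina Positive libraries. It also stood apart in markers of astrocytes and Mueller glia, at 4555 CPM against 2888 and 2835 CPM, and in photoreceptor markers, at 29098 CPM against 39621 and 48380 CPM. In bulk samples like these, fewer cells of a type and less RNA per cell cannot be told apart.

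In Brain, 25 members were higher in Positive than in Input and 19 were lower at an adjusted p under 0.05, and 3 did not pass. Of all 13957 genes tested in Brain, 38.3% were called higher and 39.7% lower. In Retina, 11 of 32 members were higher and 8 were lower, beside 15.3% and 10.8% of all 12827 genes tested. In Choroid, 6 of 16 members were higher and 6 were lower, beside 16.3% and 20.2% of all 7569 genes tested. Of all called Retina genes, 58.5% were higher with TMM scaling and 48.1% with the totals of listed genes alone. The median log2 difference of the members was 0.56 in Brain, -0.14 in Retina and -0.44 in Choroid, with medians over all genes of -0.02, -0.03 and -0.01. Positive and Input libraries did not overlap for 25 Brain members that lay higher and 19 that lay lower (40% and 41.1% of all genes), for 12 and 11 Retina members (22.7% and 22.7% of all genes) and for 5 and 8 Choroid members (22.9% and 26.8% of all genes).

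A gene stood in a table when its raw value reached 50 in all libraries of at least 1 fraction. In Brain, 37 members reached this in both fractions, 3 in Positive alone (Mmp25, Timp1 and Mmp28) and 7 in Input alone. In Retina the numbers were 25, 1 (Mmp28) and 6, and in Choroid they were 6, 2 (Adamtsl2 and Adamts9) and 8. Listing through a single fraction favours members that lie higher in it or whose other fraction holds a shallow library, so the counts above describe the listed members and are no measure of the families as a whole. The 3 Brain members, the Retina member and both Choroid members listed through Positive alone were all called higher. Of those listed through Input alone, 5 of 7 were called lower in Brain (Adam1b, Adam33, Adam8, Adamts18 and Mmp9), 1 of 6 in Retina (Adam8) and 5 of 8 in Choroid (Adam7, Mmp12, Mmp14, Mmp2 and Adamtsl4), and the others did not pass.

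**Figure D1:**
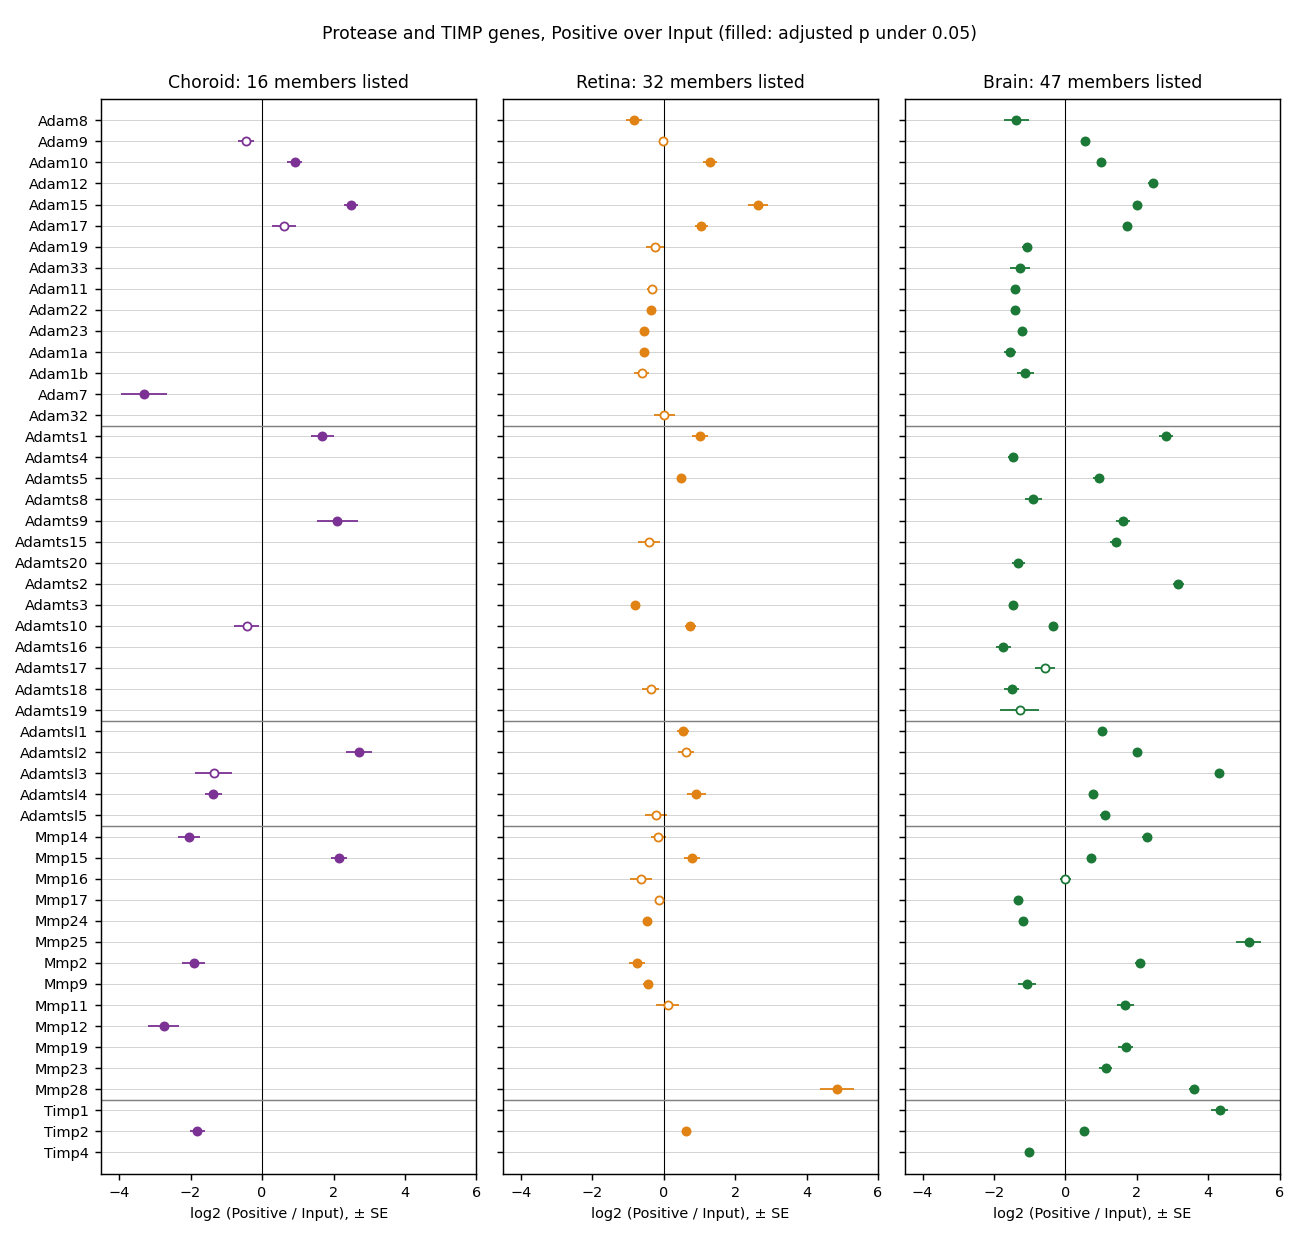
Fitted log2 difference of Positive over Input (horizontal axis, points with SE bars) for each listed member, with 1 panel per tissue and 3 libraries per fraction. Filled points passed the adjusted p threshold of 0.05, and grey lines part the ADAM, ADAMTS, ADAMTS-like, MMP and TIMP genes. Brain members run to -1.74 on the lower side and 5.12 on the higher side, and Mmp14, Mmp2, Timp2 and Adamtsl4 lie right of 0 in Brain and left of 0 in Choroid.

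In Brain, the 5 ADAMTS-like genes were all higher in Positive, 8 of 12 MMP genes were higher and 3 lower, 5 of 13 ADAM genes were higher and 8 lower, and 5 of 14 ADAMTS genes were higher and 7 lower. Of 8 ADAM genes in Brain with a catalytic site that act in shedding, 5 were higher and 3 lower, and the 3 neural ADAMs without an active site were all lower. Over all Brain genes 38.3% were higher and 39.7% lower, and no test was made between roles. In Retina, 3 of 6 catalytic ADAMs were higher, 1 was lower and 2 did not pass. In Choroid, 2 of 4 were higher and 2 did not pass. Over all genes 15.3% were higher and 10.8% lower in Retina, and 16.3% and 20.2% in Choroid.

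Across the 12 members in all 3 tables, 4 were higher in Positive in every tissue: Adam15, Adam10, Adamts1 and Mmp15. Adam15, a disintegrin protease of the cell surface that also binds integrins, was the clearest of them. It had 835, 846 and 830 CPM in Choroid Positive against 170, 125 and 151 CPM in Choroid Input. In Retina it had 194, 236 and 424 CPM in Positive against 51, 40.2 and 44.9 CPM in Input, and in Brain 484, 480 and 455 CPM in Positive against 117, 116 and 122 CPM in Input. Every Positive library lay above every Input library of its tissue, and the highest Retina value came from Retina Positive 3, the library with the highest endothelial and glial and the lowest photoreceptor markers of its fraction, whose part was not tested. The fitted log2 differences were 2.49 ± 0.20 in Choroid, 2.65 ± 0.28 in Retina and 2.00 ± 0.06 in Brain (SE, edgeR adjusted p = 5.14e-06, 0.000367 and 1.34e-09). Of the exon bases of Adam15, 24.7% overlap 4731419I09Rik on the opposite strand. The kit keeps strand, but the sources used here do not say whether counting used it, so reads of such overlapping genes may not have been told apart.

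Adam10, the main sheddase of Notch receptors and of vascular endothelial cadherin, changed less and in the same direction. It had 263, 302 and 222 CPM in Choroid Positive against 144, 116 and 155 CPM in Choroid Input. Retina values were 116, 143 and 209 CPM in Positive against 61.4, 67.7 and 63.3 CPM in Input, and Brain values were 143, 158 and 154 CPM in Positive against 76.9, 74.4 and 75.6 CPM in Input. The groups did not overlap in any tissue. The log2 differences were 0.92 ± 0.21, 1.28 ± 0.19 and 1.00 ± 0.06 in Choroid, Retina and Brain (SE, edgeR adjusted p = 0.00431, 0.00231 and 3.24e-07).

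Adamts1, a secreted protease that cuts versican and aggrecan, had its largest difference in Brain. Its Brain values were 149, 89.5 and 82.6 CPM in Positive against 15.2, 15.1 and 15.2 CPM in Input, a 7.04-fold higher level (log2 difference 2.82 ± 0.20 SE, edgeR adjusted p = 7.04e-07). In Retina it had 59.4, 42.8 and 89.6 CPM in Positive against 32, 29.1 and 34.4 CPM in Input, and in Choroid 286, 169 and 229 CPM in Positive against 104, 40.7 and 68 CPM in Input. Inputs were even in Brain and spread in Choroid, where the lowest Positive value still exceeded the highest Input value. The log2 difference was 1.01 ± 0.24 in Retina (edgeR adjusted p = 0.0162) and 1.68 ± 0.32 in Choroid (edgeR adjusted p = 0.00137). The Retina call was lost when any single Retina Input was left out (adjusted p up to 0.0743).

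Mmp15, a membrane-type MMP, stood apart in Choroid. It had 309, 213 and 270 CPM in Choroid Positive against 74.5, 51 and 53.4 CPM in Choroid Input, a log2 difference of 2.15 ± 0.24 (SE, edgeR adjusted p = 2.73e-05). Retina values were 32, 34.9 and 57.9 CPM in Positive against 24.8, 21.8 and 25.8 CPM in Input, and Brain values were 57.3, 75.4 and 58.9 CPM in Positive against 44.4, 35 and 36.8 CPM in Input. The log2 differences there were 0.79 ± 0.22 in Retina and 0.73 ± 0.12 in Brain (edgeR adjusted p = 0.0311 and 0.000339). The Retina call was lost without any single Retina Input (adjusted p up to 0.12), and without Retina Positive 3 its value fell to 0.48, still called.

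**Figure D2:**
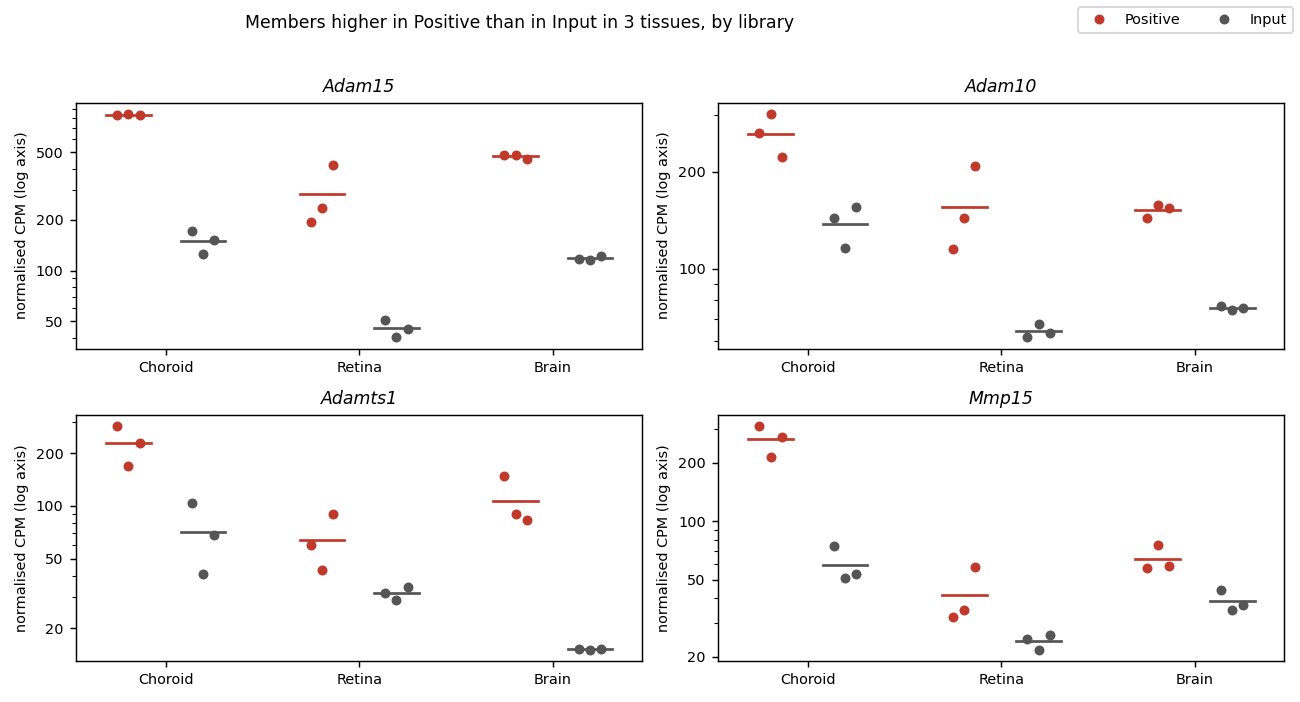
Normalised CPM per library (vertical log axis) of Adam15, Adam10, Adamts1 and Mmp15 in Positive (red, left of each pair) and Input (grey) of Choroid, Retina and Brain; points are libraries and lines are means of 3. Positive lies above Input for all 4 genes in each tissue, with Adam15 in Choroid Positive between 830 and 846 CPM.

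The sequence in front of these genes is shown because the 4 moved in the same direction in the 3 tissues, with Mmp14 beside them as the member whose direction differed most between tissues. The stretches are RefSeq sequence of GRCm38.p6 on the strand of the gene, up to 250 bases that end before the most upstream start annotated in GENCODE vM21. Capitals mark a GC box (GGGCGG), an ETS core (CGGAAG) or a SOX core (ACAAT) on either strand, and no window held the forkhead sequence TGTTTAC. They lie at chr3:89350029-89350278 (minus strand) for Adam15, chr9:70678732-70678943 (plus strand) for Adam10, chr16:85803114-85803363 (minus strand) for Adamts1, chr8:95352046-95352267 (plus strand) for Mmp15 and chr14:54431348-54431597 (plus strand) for Mmp14.
Adam15: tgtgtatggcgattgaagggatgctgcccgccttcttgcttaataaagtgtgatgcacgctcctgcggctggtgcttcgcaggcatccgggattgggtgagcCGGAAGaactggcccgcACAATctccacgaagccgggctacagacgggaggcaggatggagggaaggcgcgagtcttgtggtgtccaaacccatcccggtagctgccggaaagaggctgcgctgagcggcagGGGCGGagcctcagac
Adam10: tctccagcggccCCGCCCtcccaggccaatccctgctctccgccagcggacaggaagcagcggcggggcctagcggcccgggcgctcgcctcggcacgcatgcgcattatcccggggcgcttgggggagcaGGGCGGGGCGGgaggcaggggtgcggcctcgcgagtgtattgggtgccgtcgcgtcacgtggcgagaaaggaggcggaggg
Adamts1: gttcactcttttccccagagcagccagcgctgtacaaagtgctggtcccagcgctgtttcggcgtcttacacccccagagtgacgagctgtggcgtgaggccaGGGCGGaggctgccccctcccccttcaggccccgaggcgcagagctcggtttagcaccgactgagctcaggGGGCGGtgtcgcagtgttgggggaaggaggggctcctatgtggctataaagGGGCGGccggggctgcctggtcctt
Mmp15: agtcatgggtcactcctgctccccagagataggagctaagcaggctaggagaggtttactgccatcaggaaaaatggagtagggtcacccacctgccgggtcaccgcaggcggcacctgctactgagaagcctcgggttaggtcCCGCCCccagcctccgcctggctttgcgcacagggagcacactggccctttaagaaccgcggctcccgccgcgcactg
Mmp14: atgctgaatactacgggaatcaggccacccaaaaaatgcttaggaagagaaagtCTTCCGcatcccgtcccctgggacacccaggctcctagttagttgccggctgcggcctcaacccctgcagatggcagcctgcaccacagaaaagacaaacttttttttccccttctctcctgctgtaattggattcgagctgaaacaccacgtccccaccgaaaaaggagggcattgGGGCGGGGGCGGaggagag

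All 5 windows held at least 1 GC box, with 3 each before Adam10 and Adamts1, 2 before Mmp14 and 1 each before Adam15 and Mmp15. The ETS core occurred once before Adam15 and once before Mmp14, and the SOX core once before Adam15. Among windows of 250 bases before 27025 genes, 32.9% held the GC box, 13.8% the ETS core, 28.3% the SOX core and 3.09% the forkhead sequence. The windows of Adam10 and Mmp15 are shorter than that, at 212 and 222 bases. A match describes letters and is not a measured binding site.

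Brain gave the most members. The largest difference belonged to Mmp25, a membrane-type MMP held by a lipid anchor and best known from neutrophils. It had 5.12, 3.84 and 6.44 CPM in Positive against 0.0686, 0.206 and 0.135 CPM in Input, where its raw values were between 2.45 and 9.45. Its fitted difference was 5.12 ± 0.35 on the log2 scale (SE, edgeR adjusted p = 4.92e-07), a value that rests on these few Input reads. Timp1, a secreted MMP inhibitor, had 6.61, 9.18 and 8.04 CPM in Positive against 0.48, 0.435 and 0.292 CPM in Input (log2 difference 4.32 ± 0.24, edgeR adjusted p = 1.17e-07). Both genes were low in absolute level and, like Mmp28, were listed in Brain through Positive alone.

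Adamtsl3, an ADAMTS-like matrix protein, had 41.1, 41.9 and 44.3 CPM in Brain Positive against 1.82, 2.26 and 2.34 CPM in Brain Input. Its log2 difference was 4.29 ± 0.11 (SE, edgeR adjusted p = 7.1e-10). Mmp28, a secreted MMP called epilysin, had 23.4, 24.8 and 23.2 CPM in Positive against 1.58, 2.26 and 1.98 CPM in Input (log2 difference 3.60 ± 0.14, edgeR adjusted p = 8.31e-09). In both, the 3 Positive libraries lay close together and well above every Input library. Of the Mmp28 exon bases, 12.3% overlap 1700020L24Rik on the opposite strand.

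Next in size in Brain came Adamts2, Adamts1 (2.82, given above), Adam12, Mmp14 and Mmp2. Adamts2, which trims the amino-terminal propeptide of fibrillar procollagens, averaged 94 ± 17.1 CPM in Positive and 10.4 ± 1.11 CPM in Input (SD, n = 3 each). Adam12, a sheddase of growth factor precursors known from mesenchymal cells, averaged 21.1 ± 2.7 and 3.83 ± 0.414 CPM in Positive and Input. Mmp14, the membrane-type enzyme that activates pro-MMP2, averaged 112 ± 22.9 and 23.1 ± 1.27 CPM, and Mmp2, the gelatinase it activates, averaged 16.6 ± 1.58 and 3.94 ± 0.5 CPM. Their log2 differences were 3.16 ± 0.14, 2.46 ± 0.14, 2.27 ± 0.14 and 2.08 ± 0.14 (SE, edgeR adjusted p at most 4.35e-07). Adam15, Adamtsl2, Adam17 and Mmp19 followed with 2.00, 1.99, 1.73 and 1.69, and 29% of the Mmp19 exon bases overlap other genes on the opposite strand.

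The other Brain members that were higher had log2 differences between 0.52 (Timp2) and 1.68 (Mmp11). They include the versican-cutting Adamts9 (1.61), Adamts15 (1.40) and Adamts5 (0.93), Mmp23 (1.12), Adamtsl5, Adamtsl1 and Adamtsl4 (1.11, 1.03 and 0.76), and the sheddase Adam9 (0.56). All 8 fibroblast markers were called higher in Brain Positive, with a summed level of 1962 to 2879 CPM in Positive against 194 to 209 CPM in Input. Of 7 listed mural markers 3 were higher and 3 lower, with a summed level of 1193 to 1627 CPM in Positive against 148 to 163 CPM in Input, most of it Vtn at 1234 ± 202 CPM in Positive and 103 ± 8.72 CPM in Input (SD, n = 3 each). Rgs5, Kcnj8 and Abcc9 were the mural markers that were lower. The part of these cells in the values of Timp1, Adamtsl3, Adamts2, Adam12, Mmp14 and Mmp2 was not tested.

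The members that were lower in Brain Positive are led in level by the neural ADAMs. Adam22 and Adam23, which lack protease activity and anchor LGI proteins at synapses, and Adam11, their relative, were all lower. Adam22 had 73, 71.4 and 84.3 CPM in Positive against 179, 218 and 213 CPM in Input. Adam23 had 85.7, 80.1 and 85.8 CPM in Positive against 186, 199 and 198 CPM in Input. Adam11 had 89.3, 94.2 and 111 CPM in Positive against 247, 267 and 271 CPM in Input. Their Positive levels were 0.375, 0.432 and 0.375 of the Input levels, and no Positive library reached an Input library, with log2 differences of -1.42 ± 0.10, -1.21 ± 0.07 and -1.41 ± 0.09 (SE, edgeR adjusted p at most 4.94e-07). All 8 neuronal markers were lower as well, at a summed 3067 to 3547 CPM in Positive against 7334 to 7793 CPM in Input, and their part in the ADAM values was not tested.

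The largest falls in Brain were in members of low level. Adamts16 had 3.29, 2.01 and 3.1 CPM in Positive against 7.95, 9.49 and 10.4 CPM in Input (log2 difference -1.74 ± 0.20, edgeR adjusted p = 2.5e-05). Adam1a, a sperm protein gene, had 3.99, 3.35 and 4.99 CPM in Positive against 11.9, 11.2 and 12.9 CPM in Input (log2 difference -1.54 ± 0.16, edgeR adjusted p = 1.2e-05). Of its 7508 exon bases in GENCODE vM21, 63.7% overlap Tmem116, Gm42878 and Mapkapk5. The deposited coordinates (chr5:121518604-121521695) span fewer bases than that model. How far the reads counted for Adam1a overlap these genes is therefore not known. Adamts18 had 1.06, 0.954 and 1.42 CPM in Positive against 3.02, 3.25 and 3.46 CPM in Input (log2 difference -1.50 ± 0.21, edgeR adjusted p = 0.000101).

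Adamts4, an aggrecanase that also cuts brevican, had 7.38, 8.22 and 10.5 CPM in Brain Positive against 22.6, 25.3 and 24.9 CPM in Brain Input (log2 difference -1.48 ± 0.13, edgeR adjusted p = 3.81e-06). Adamts3, the relative of Adamts2 that processes VEGF-C, averaged 7.36 ± 0.636 CPM in Positive and 20.1 ± 2.67 CPM in Input (SD, n = 3 each), so the pair of procollagen propeptidases lay on opposite sides. The membrane-type Mmp17 and Mmp24 were lower by 1.32 and 1.19 on the log2 scale, at 67.6 ± 4.82 and 48.4 ± 5.64 CPM in Positive against 169 ± 22.9 and 110 ± 3.84 CPM in Input. Timp4, a TIMP known from astrocytes, was lower at 33 ± 3.09 CPM in Positive against 66.5 ± 6.61 CPM in Input. Of the 8 astrocyte markers in Brain 6 were lower and 2 higher, at a summed 3677 to 3872 CPM in Positive against 2857 to 3171 CPM in Input. Most of this sum was Glul, at 2645 ± 42.8 CPM in Positive and 1619 ± 71.4 CPM in Input (SD, n = 3 each). Glul and Gjb6 (388 ± 29.3 CPM in Positive and 72.5 ± 1.11 CPM in Input) were the 2 that were higher. Adam8, Adamts20, Adam33, Adam1b, Mmp9, Adam19, Adamts8 and Adamts10 were also lower, by between 1.37 and 0.36 on the log2 scale. Oligodendrocyte markers (7 of 8 lower, 924 to 1654 CPM in Positive against 4659 to 5219 CPM in Input) and microglial markers (7 of 8 lower, 137 to 217 CPM in Positive against 304 to 337 CPM in Input) fell too, and their part in these values was not tested.

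In Brain 3 members did not pass. Mmp16 had a log2 difference of -0.01 ± 0.15 (edgeR adjusted p = 0.962). Adamts17 and Adamts19 had -0.58 ± 0.28 and -1.29 ± 0.54 (edgeR adjusted p = 0.087 and 0.0517), and both passed once the homogenate was kept as a block (adjusted p = 0.0229 and 0.00193). All 44 Brain calls held with each library left out in turn.

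In Retina the largest difference was that of Mmp28, which was listed there through Positive alone. It had 17.6, 20.4 and 44.2 CPM in Positive against 1.3, 0.515 and 0.985 CPM in Input, a log2 difference of 4.85 ± 0.47 (SE, edgeR adjusted p = 0.000247). The highest value stood in Retina Positive 3, and the lowest Positive value was above all Inputs. Adam17, the sheddase of tumour necrosis factor, had 40, 44 and 63.7 CPM in Positive against 24.8, 25.6 and 21.3 CPM in Input (log2 difference 1.04 ± 0.18, edgeR adjusted p = 0.00421). Timp2, the inhibitor that also takes part in pro-MMP2 activation, averaged 190 ± 27.4 CPM in Positive and 124 ± 4.07 CPM in Input (SD, n = 3 each). Adamts10, which binds fibrillin microfibrils, was higher in Retina at 22.9 ± 3.82 CPM in Positive and 13.7 ± 1.37 CPM in Input (log2 difference 0.75 ± 0.16, edgeR adjusted p = 0.0102), although it was lower in Brain. Adamtsl4, Adamtsl1 and Adamts5 were higher by 0.91, 0.55 and 0.49 on the log2 scale, and the adjusted p of Adamtsl1 was 0.05, just under the threshold before rounding.

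In Retina 8 members were lower in Positive. Adam8, known from leukocytes, had 2.29, 1.77 and 2.39 CPM in Positive against 3.92, 3.57 and 4.08 CPM in Input (log2 difference -0.82 ± 0.22, edgeR adjusted p = 0.0292). Adamts3 had 43.5, 39.2 and 36.2 CPM in Positive against 68, 79.6 and 58.8 CPM in Input (log2 difference -0.80 ± 0.13, edgeR adjusted p = 0.00314). Mmp2 had 6.32, 8.25 and 6.57 CPM in Positive against 8.84, 14.7 and 12.1 CPM in Input (log2 difference -0.76 ± 0.22, edgeR adjusted p = 0.0396). For these 3 genes no Positive library reached any Input library. Adam23 had 35.3, 32.9 and 40.6 CPM in Positive against 51.6, 54.5 and 53 CPM in Input (log2 difference -0.55 ± 0.10, edgeR adjusted p = 0.00596). Adam1a, Mmp24, Mmp9 and Adam22 were lower by 0.54, 0.46, 0.44 and 0.35. Of 8 neuronal markers in Retina 5 were lower, at a summed 3278 to 4012 CPM in Positive against 4188 to 4325 CPM in Input, and their part was not tested.

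In Retina 13 members did not pass, among them Mmp14, the membrane-type activator of pro-MMP2, with 13.7, 11.6 and 17.8 CPM in Positive against 20.1, 14.6 and 13.4 CPM in Input. Adam9 had 170, 184 and 140 CPM in Positive against 159, 189 and 151 CPM in Input, overlapping groups with a log2 difference of -0.02 ± 0.13. The other 11 had log2 differences between -0.64 (Mmp16) and 0.62 (Adamtsl2, edgeR adjusted p = 0.0737), among them Adam1b, Adamts15, Adamts18, Adam11, Adam19, Adamtsl5, Mmp17, Adam32 and Mmp11. The Retina calls were the least firm. Of 19 called members 8 stayed called with every library left out in turn (Mmp28, Adam15, Adam10, Adam17, Timp2, Adamts5, Adamts3 and Adam23), and 11 lost the call in at least 1 case, among them Mmp2 (adjusted p up to 0.164) and Mmp24 (up to 0.148). With the homogenate as a block, Mmp9, Adamtsl1 and Adam8 lost the call (adjusted p = 0.0501, 0.0799 and 0.0526) and Adam11 gained it (log2 difference -0.34, adjusted p = 0.0406).

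In Choroid, Adamtsl2, an ADAMTS-like glycoprotein of fibrillin microfibrils, rose the most. It had 157, 181 and 191 CPM in Positive against 33.7, 10.8 and 33.5 CPM in Input, a log2 difference of 2.72 ± 0.36 (SE, edgeR adjusted p = 9.52e-05). Its 3 Positive libraries lay well above all Inputs, and it was listed through Positive alone. Adamts9, a versican-cutting ADAMTS, had 35.1, 89.1 and 215 CPM in Positive against 25.7, 10.8 and 39.3 CPM in Input, and here the groups overlapped. Its log2 difference of 2.10 ± 0.58 (SE, edgeR adjusted p = 0.0128) was 1.19 without Choroid Positive 3 (adjusted p = 0.131) and 1.78 without Choroid Input 2 (adjusted p = 0.0594). The other 11 Choroid calls held with each library left out.

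The 6 members that were lower in Choroid Positive were 3 MMP genes, 1 ADAMTS-like gene, 1 TIMP gene and Adam7. Adam7, known in mice from the epididymis, had 4.75, 0 and 2.32 CPM in Positive against 15.9, 32.9 and 42.4 CPM in Input (log2 difference -3.31 ± 0.66, edgeR adjusted p = 0.00178). Mmp12, macrophage elastase, had 12.4, 3.18 and 9.86 CPM in Positive against 86, 40.2 and 66.4 CPM in Input (log2 difference -2.75 ± 0.43, edgeR adjusted p = 0.000363). Both entered the table through Input alone. Of 5 listed microglia and macrophage markers 4 were lower in Choroid Positive, at a summed 161 to 249 CPM against 665 to 812 CPM in Input, and their part in the Mmp12 value was not tested.

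Mmp14, Mmp2 and Timp2, which act together in the activation of pro-MMP2, were all lower in Choroid Positive. Mmp14 had 56.3, 23.9 and 36.5 CPM in Positive against 212, 125 and 166 CPM in Input (log2 difference -2.04 ± 0.32, edgeR adjusted p = 0.000319). Mmp2 had 34.7, 14.3 and 23.8 CPM in Positive against 113, 80 and 98.1 CPM in Input (log2 difference -1.91 ± 0.32, edgeR adjusted p = 0.000487). Timp2 averaged 303 ± 59.4 CPM in Positive and 1074 ± 79.7 CPM in Input (SD, n = 3 each; log2 difference -1.81 ± 0.22, edgeR adjusted p = 4.64e-05). No Positive library reached any Input library in these 3 genes. Timp2 met the listing minimum in both fractions, whereas Mmp14 and Mmp2 were listed through Input alone, with 15.35 and 9 raw counts in Choroid Positive 2, the shallowest library. Adamtsl4, a microfibril protein tied in humans to displaced lenses, was lower by 1.37 ± 0.24, at 42.2 ± 4.74 CPM in Positive and 108 ± 5.04 CPM in Input, and it too was listed through Input alone. Without Choroid Positive 2 the log2 differences were -1.84 for Mmp14, -1.72 for Mmp2 and -1.43 for Adamtsl4, all still called.

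Markers of other choroidal cells fell alongside. All 8 fibroblast markers were lower in Choroid Positive (424 to 753 CPM against 3409 to 4327 CPM in Input), as were all 7 listed markers of the retinal pigment epithelium (1829 to 3655 CPM in Positive against 23587 to 39294 CPM in Input). Their part in the values of Mmp14, Mmp2, Timp2 and Adamtsl4 was not tested. The 4 Choroid members that did not pass were Adam17 (log2 difference 0.61, adjusted p = 0.183, or 0.0485 with the homogenate as a block), Adamts10 (-0.44), Adam9 (-0.45) and Adamtsl3 (-1.36, adjusted p = 0.062).

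Whether the Positive over Input difference itself differed between tissues was tested as an interaction, with the 18 libraries fitted together on the 7270 genes that all 3 tables list. Between Retina and Brain 1 of 12 members had a higher difference in Retina and 5 a lower one, beside 11% and 18.8% of all genes. Between Choroid and Brain 2 were higher and 6 lower, beside 21.4% and 30.5% of all genes. Between Choroid and Retina 2 were higher and 5 lower, beside 21.7% and 23.3% of all genes. The comparisons share libraries, so they are not independent of each other. The 10 endothelial markers had a median log2 difference of 5.26 in Brain, 6.41 in Retina and 2.83 in Choroid. The part of this in the interactions was not tested.

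Mmp14 and Mmp2 moved apart the most, and both stood in the Choroid table through Input alone, so their Choroid values come from listing that favours a lower Positive level. The Mmp14 difference was lower in Choroid than in Brain by 4.09 ± 0.35 and lower in Retina than in Brain by 2.48 ± 0.33 on the log2 scale (SE, edgeR adjusted p = 4.66e-08 and 2.8e-05). The Mmp2 difference was lower in Choroid than in Brain by 3.77 ± 0.35 and lower in Retina than in Brain by 2.88 ± 0.33 (SE, edgeR adjusted p = 9.14e-08 and 4.97e-06). Beside this, the 8 fibroblast markers were all called higher in Brain and all lower in Choroid, while in Retina 4 of the 8 were listed, 1 of them called lower. Col1a1, Col3a1, Lum and Dcn were not in the Retina table, and the part of these cells in the interaction was not tested.

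Timp2 and Adamtsl4 had like differences in Retina and Brain and lower ones in Choroid. Timp2 met the listing minimum in both fractions of Choroid. Adamtsl4 was listed there through Input alone, which favours a lower Positive level. For Timp2 the difference was lower in Choroid by 2.15 ± 0.19 than in Brain and by 2.19 ± 0.19 than in Retina (SE, edgeR adjusted p = 6e-08 and 1.37e-07). For Adamtsl4 it was lower by 1.97 ± 0.28 and by 2.06 ± 0.29 (SE, edgeR adjusted p = 1.63e-05 and 2.04e-05). Between Retina and Brain the interaction was 0.04 ± 0.19 for Timp2 and 0.10 ± 0.27 for Adamtsl4, neither past the threshold.

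Mmp15 and Adamtsl2 ran the other way. Mmp15 met the listing minimum in both fractions of Choroid. Adamtsl2 was listed there through Positive alone, which favours a higher Positive level. Mmp15 had a higher difference in Choroid than in Brain by 1.62 ± 0.29 and than in Retina by 1.61 ± 0.29 (SE, edgeR adjusted p = 0.000152 and 0.000252). Adamtsl2 had a higher difference in Choroid than in Retina by 2.29 ± 0.37 (edgeR adjusted p = 9e-05) and a lower one in Retina than in Brain by 1.43 ± 0.36 (edgeR adjusted p = 0.00645). Between Choroid and Brain it differed by 0.86 ± 0.37 (edgeR adjusted p = 0.0576, or 0.0464 with the homogenate as a block). Adamts1 had a lower difference in Retina than in Brain by 1.86 ± 0.40 (edgeR adjusted p = 0.0023).

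Adamts10 had a higher difference in Retina than in Brain by 1.05 ± 0.26 and a lower one in Choroid than in Retina by 0.90 ± 0.29 (SE, edgeR adjusted p = 0.00595 and 0.0179). Adam9 had lower differences than in Brain, by 0.62 ± 0.20 in Retina and by 0.82 ± 0.21 in Choroid (edgeR adjusted p = 0.0272 and 0.00344). Adam17 was lower in Choroid than in Brain by 0.94 ± 0.35 and Adam15 higher by 0.66 ± 0.27 (edgeR adjusted p = 0.0315 and 0.0494), and the Mmp2 difference was lower in Choroid than in Retina by 0.89 ± 0.35 (edgeR adjusted p = 0.045). These last 3, the Retina value of Adam9 and the Choroid minus Retina value of Adamts10 each lost the call when some single library was left out. The Retina value of Adam9 also lost it with DESeq2 size factors (-0.40, adjusted p = 0.148) and with the totals of listed genes alone (-0.48, adjusted p = 0.104), Adam17 with the size factors (adjusted p = 0.0601) and Adam15 with the totals (adjusted p = 0.118). Adamts10, like Mmp2, was listed in Choroid through Input alone, so the listing favours their lower Choroid differences. Adam17 was also listed there through Input alone, but its Choroid log2 difference was 0.61, not past the threshold. Its raw value was 40.6 in Choroid Positive 2, the shallowest library, against 312 and 188 in the other Choroid Positive libraries. The part of the listing in the lower Choroid difference of Adam17 was not tested. Adam10 did not pass in any of the 3 interactions (log2 differences 0.08, -0.14 and 0.22). With the homogenate as a block, Adamts1 also passed for Choroid minus Brain and Choroid minus Retina (adjusted p = 0.0174 and 0.0107) and Adam17 for Retina minus Brain (adjusted p = 0.0239).

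The scaling matters for these interactions. Over all genes, 37% of the called Retina minus Brain interactions were higher with TMM scaling, 61.3% with DESeq2 size factors and 51.4% with the totals of listed genes alone. For Choroid minus Retina the shares were 48.3%, 41.2% and 27.6%. The median over all genes for Retina minus Brain was -0.09 with TMM scaling and 0.13 with DESeq2 size factors. The values of Mmp14, Mmp2, Timp2, Adamtsl4, Mmp15 and Adamtsl2 named above as called for Choroid kept their direction and call under both scalings.

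**Figure D3:**
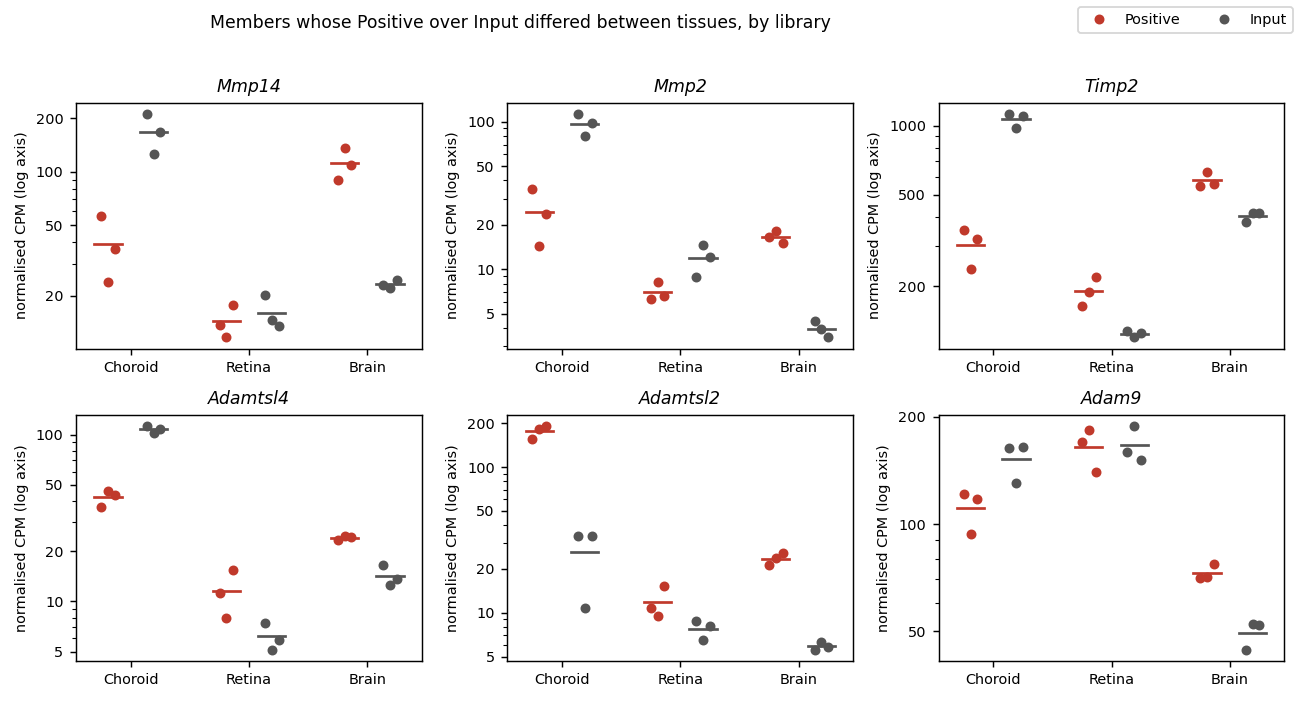
Normalised CPM per library (vertical log axis, scaled within each tissue) of 6 members in Positive (red, left of each pair) and Input (grey) of Choroid, Retina and Brain; points are libraries and lines are means of 3. Mmp14, Mmp2, Timp2 and Adamtsl4 lie below Input in Choroid and above it in Brain, and Adamtsl2 is highest in Choroid Positive at 157 to 191 CPM.

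Levels on the pulled-down ribosomes were compared between tissues by fitting the 9 Positive libraries together on those 7270 genes, although the authors had filtered each table on its own. In Choroid Positive against Brain Positive 9 of 12 members were higher and 2 lower, beside 28.9% and 24% of all genes. In Choroid Positive against Retina Positive 10 were higher and 1 lower, beside 31.4% and 31% of all genes. In Retina Positive against Brain Positive 1 was higher and 6 lower, beside 29.5% and 27.6% of all genes. Summed endothelial markers, scaled within each tissue, were 13079 to 17223 CPM in Choroid Positive. They were 2633 to 5345 CPM in Retina Positive and 4770 to 5276 CPM in Brain Positive, and their part was not tested. With the totals of listed genes alone, the median over all genes moved to -0.20 for Choroid over Brain and to -0.24 for Choroid over Retina, against 0.08 and -0.03 with TMM scaling, and the share of called genes that were higher moved to 35% and 39.2%, against 54.7% and 50.4%.

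Adamtsl2 stood in the Choroid table through Positive alone, so its Choroid value comes from listing that favours a higher Positive level. Among the 12 members it had the largest difference of Choroid from both other tissues. It had 174, 199 and 214 CPM in Choroid Positive and 13.1, 11.2 and 17.5 CPM in Retina Positive, against 22.1, 24.4 and 26.9 CPM in Brain Positive. The Choroid level was higher by 2.99 ± 0.19 than in Brain and by 3.79 ± 0.20 than in Retina on the log2 scale (SE, edgeR adjusted p = 7.3e-07 and 1.57e-07). Mmp15 had 342, 234 and 302 CPM in Choroid Positive and 38.6, 41.3 and 65.8 CPM in Retina Positive, against 59.5, 78 and 61.6 CPM in Brain Positive. Its Choroid level was higher by 2.15 ± 0.23 than in Brain and by 2.60 ± 0.23 than in Retina (SE, edgeR adjusted p = 2.77e-05 and 4.77e-06). For both genes no library of another tissue reached the lowest Choroid library.

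Adam15, Adamts1, Adam17, Adam10 and Adamtsl4 were higher in Choroid Positive than in Brain Positive by 0.91, 1.21, 1.08, 0.87 and 0.88 on the log2 scale, and Adam9 by 0.72. With the totals of listed genes alone, Adamtsl4, Adam9 and Mmp2 (0.75) did not pass (adjusted p = 0.0551, 0.0562 and 0.183), and the Adam10 difference was 0.58. The Mmp2 call was also lost with DESeq2 size factors (adjusted p = 0.0504) and without any 1 of 5 Positive libraries (adjusted p up to 0.276), and that of Adamtsl4 without Brain Positive 1 (adjusted p = 0.0519). Mmp14 and Timp2 were lower in Choroid than in Brain by 1.32 ± 0.27 and 0.83 ± 0.17. Mmp14 had 62.4, 26.2 and 40.8 CPM in Choroid Positive and 16.5, 13.7 and 20.2 CPM in Retina Positive, against 93.1, 140 and 115 CPM in Brain Positive, so the order Brain, Choroid, Retina was free of overlap. Against Retina, Mmp2, Adamts1, Adamtsl4, Adam15 and Mmp14 were higher in Choroid by between 1.46 and 1.82, and Adam17, Adam10 and Timp2 by 0.93, 0.66 and 0.60. Adam10 and Timp2 did not pass there with the totals of listed genes alone (adjusted p = 0.0615 and 0.099). Within Choroid, Mmp2, Mmp14, Adamtsl4 and Timp2 were lower in Positive than in Input, and Adam17 and Adam9 did not pass. The Choroid Positive levels of these genes are therefore no measure of the recombined cells alone.

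Adam9 was the only member of the 12 that was highest in Retina. It had 135, 103 and 131 CPM in Choroid Positive and 205, 217 and 159 CPM in Retina Positive, against 73.2, 73.7 and 80.6 CPM in Brain Positive. Retina exceeded Brain by 1.35 ± 0.15 on the log2 scale (SE, edgeR adjusted p = 3.73e-05), and Choroid lay below Retina by 0.63 ± 0.16 (edgeR adjusted p = 0.00478). The human gene is known from inherited cone-rod dystrophy. As Adam9 did not differ between Positive and Input in Retina past the threshold, its level there is no measure of the recombined cells alone. Mmp14, Timp2, Mmp2, Adamtsl4, Adamtsl2 and Adamts10 were lower in Retina than in Brain by 2.78, 1.43, 1.06, 0.88, 0.80 and 0.67. The Adamts10 call was lost when any 1 of 5 of the 6 libraries was left out (adjusted p 0.0571 to 0.0944).

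**Figure D4:**
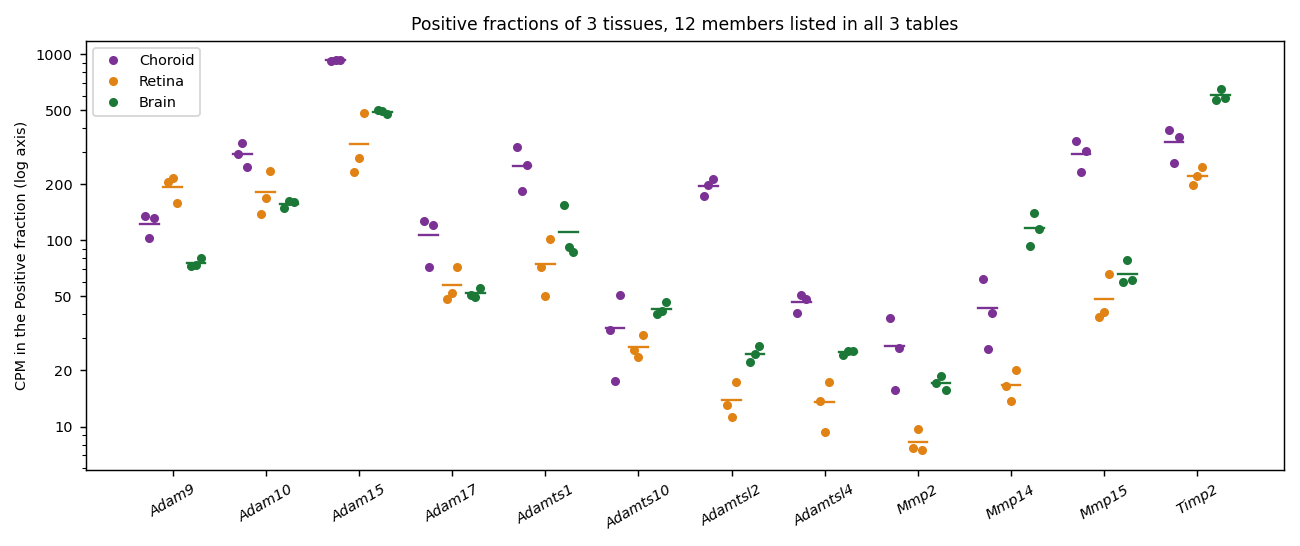
CPM in the Positive fraction (vertical log axis, 9 libraries scaled together) of the 12 members listed in all 3 tables; points are libraries and lines are means of 3 for Choroid, Retina and Brain. Adamtsl2 and Mmp15 stand apart in Choroid, Mmp14 is highest in Brain at 93.1 to 140 CPM and Adam9 is highest in Retina at 159 to 217 CPM.

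Levels of different members were compared per kilobase of exon. Adam15 had the highest level per kilobase of all listed members in each Positive fraction, at 281 ± 2.81 CPM per kilobase in Choroid, 95.7 ± 41.1 in Retina and 159 ± 5.32 in Brain (SD, n = 3 each). Timp2 came next in each, at 81.7 ± 16, 51.3 ± 7.38 and 156 ± 12.1 CPM per kilobase, and in Brain these values overlapped with those of Adam15. In Input the order differed, with Timp2 first in Choroid (289 ± 21.5 CPM per kilobase) and in Brain (109 ± 5.57) and Adam9 first in Retina (41.1 ± 4.88).

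For the gene lists that follow, the calls over all genes were 16.3% higher and 20.2% lower in Choroid, 15.3% and 10.8% in Retina and 38.3% and 39.7% in Brain. Genes that mature, carry or activate these proteases were read from a list of 21. In Choroid, 5 of 12 listed genes were higher and 3 lower, in Retina 10 of 17 were higher and none of the 17 lower at an adjusted p under 0.05, and in Brain 14 of 18 were higher and 3 lower. The list medians were 0.19, 0.54 and 1.14 on the log2 scale. Rhbdf2, an inactive rhomboid that carries ADAM17 to the surface, averaged 27.4 ± 3.41 CPM in Brain Positive and 1.51 ± 0.343 CPM in Brain Input (log2 difference 4.19, edgeR adjusted p = 1.65e-08). Plaur, the urokinase receptor, and the tetraspanin Cd151 were higher in Brain by 3.58 and 3.24. In Retina, Plat, tissue plasminogen activator, and Tspan14, a tetraspanin partner of ADAM10, were higher by 3.59 and 2.10. In Choroid, Tspan15, another ADAM10 partner, was higher by 2.40, while Tspan10 and Pcsk6 were lower by 3.58 and 2.49.

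Inhibitors outside the TIMP family came from a list of 14. In Choroid 1 of 10 was higher and 7 lower (median -2.07), in Retina 3 of 10 were higher and 1 lower (median -0.15), and in Brain 7 of 13 were higher and 4 lower (median 1.59). Reck, a membrane-anchored MMP inhibitor, averaged 197 ± 74.4 CPM in Retina Positive and 20.7 ± 3.5 CPM in Retina Input, and 164 ± 10 CPM in Brain Positive and 12.1 ± 1.21 CPM in Brain Input (log2 differences 3.25 and 3.76, edgeR adjusted p = 0.00012 and 4.36e-10). In Choroid, Sfrp1, Serpine2 and Thbs1 were lower by 3.92, 3.75 and 3.25, whereas Thbs1 was higher in Brain by 3.28.

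Membrane proteins that these enzymes shed or cut (a list of 31) had 14 higher and 5 lower of 28 in Choroid, 18 and 2 of 31 in Retina, and 21 and 6 of 30 in Brain, with medians of 0.98, 0.88 and 1.61. Many of them are endothelial genes, Tie1, Cdh5 and Kdr being the largest in Brain (5.26, 5.11 and 5.05), so the list is no independent measure of shedding. In Choroid, Cd44 and Sdc2 were lower by 3.41 and 3.18. Matrix substrates (a list of 24) had 6 higher and 7 lower of 15 in Choroid, 7 and 1 of 14 in Retina and 14 and 9 of 24 in Brain, and medians of -0.24, 1.46 and 2.53. Vwf, the von Willebrand factor that an ADAMTS protease cuts in plasma, was higher by 2.87 in Choroid, 6.39 in Retina and 4.73 in Brain. The proteoglycans Lum and Dcn were lower in Choroid by 3.75 and 2.90, and Col3a1 was higher in Brain by 4.39, beside the fibroblast markers among which these 3 genes are counted.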

How the data were processed

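Positive and Input RNA of each tissue was sequenced in 3 libraries with a directional kit, per the labels. The authors deposited 1 table per tissue of expected counts per gene and of normalized values on a log2 scale, per the file headers, and the log2 values (18 columns) were not used. Build mm10 and DESeq are named, per the submitters' processing notes. Aligner, counting program and strand use are not given in the sources used. Per the file headers, a gene was listed when its raw value reached 50 in all libraries of at least 1 fraction, and genes below that were not analysed here.

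The deposited expected counts were rounded and fitted over each whole table in R 4.3.3 with the quasi-likelihood test of edgeR 4.0.16 after TMM scaling; filterByExpr at a minimum of 10 removed no gene. Interactions used all 18 libraries, and Positive fractions were compared over 9 libraries, both over the 7270 shared genes. P-values were Benjamini-Hochberg adjusted over all genes tested, with a threshold of 0.05. CPM are normalised counts scaled to library size with SD over 3 libraries, SE belongs to the fitted log2 difference, and levels per kilobase use the exon length of GENCODE vM21. Scripts were tested on simulated data.

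Input and Positive of the same number come from the same homogenate per the labels' protocol, so the numbers pair libraries within a tissue. As a check, deviations of same-numbered libraries correlated above 0.1 in 8 of 9 pairs (0.0014 to 0.281). Pairs of different number within a tissue ran from -0.323 to 0.18. The lowest same-numbered value was that of Retina Positive 3 with Retina Input 3. The highest value of different number was that of Retina Positive 3 with Retina Input 1, so the check is weakest in Retina. The fit without the block is given, and values with the block stand beside a result where the call changed. The members, marker and gene lists were chosen with earlier results of these data known. Named members are, per tissue, up to 12 each way with the largest change past the threshold, and up to 6 each way for comparisons between tissues; others are named with values. Alternatives were DESeq2 size factors, totals of listed genes alone, no filter, the Wald test of DESeq2 1.42.0, a filter at the median level, each library left out and the replicate block. Gene symbols are the authors', promoters are from RefSeq (31 of 50 members matched), and p-values measure the spread between these libraries.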

Additional observations from a re-analysis of the deposited data

Results flagged for a closer look

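Given here as log2 values are the interactions called at an adjusted p under 0.05 (edgeR) among the 12 members listed in all 3 tables. Over all genes, 11% were higher and 18.8% lower for Retina minus Brain, and 21.4% and 30.5% for Choroid minus Brain. The shares for Choroid minus Retina were 21.7% and 23.3%. For Retina minus Brain the interactions were -2.88 for Mmp2, -2.48 for Mmp14, -1.86 for Adamts1, -1.43 for Adamtsl2, -0.62 for Adam9 and 1.05 for Adamts10. For Choroid minus Brain they were -4.09 for Mmp14, -3.77 for Mmp2, -2.15 for Timp2, -1.97 for Adamtsl4, -0.94 for Adam17, -0.82 for Adam9, 0.66 for Adam15 and 1.62 for Mmp15. For Choroid minus Retina they were -2.19 for Timp2, -2.06 for Adamtsl4, -1.62 for Mmp14, -0.90 for Adamts10, -0.89 for Mmp2, 1.61 for Mmp15 and 2.29 for Adamtsl2. Calls lost without some single library were Adam9 for Retina minus Brain and Adam15 and Adam17 for Choroid minus Brain. Adamts10 and Mmp2 lost theirs for Choroid minus Retina. In Choroid, Mmp14, Mmp2, Adamtsl4, Adam17 and Adamts10 were listed through Input alone and Adamtsl2 through Positive alone. Single libraries were not screened for outliers, because groups of 3 are too small for that.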

How the results depend on the processing

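Counts of called members stayed within 1.5 times with no filter and with the replicate block. With the filter at the median level fewer genes were tested: Brain had 2866 genes higher and 2871 lower (8 and 7 members), Retina 1068 and 886 (6 and 3 members), and Choroid 932 lower. In the interactions this filter left 490 genes lower (1 member lower) for Retina minus Brain, 1035 higher and 1037 lower (1 and 2 members) for Choroid minus Brain, and 624 and 1023 (1 and 1) for Choroid minus Retina. Between Positive fractions it left 1150 higher and 1073 lower (1 member lower) for Retina over Brain, 1219 and 982 (5 and 1) for Choroid over Brain, and 1285 and 1330 (5 members higher) for Choroid over Retina. For Retina minus Brain, DESeq2 size factors gave 1402 genes higher (2 members) and 885 lower, and the DESeq2 Wald test gave 1773 higher (2 members), against 802 higher and 1368 lower with TMM scaling. The totals of listed genes alone gave 1 member higher for Choroid minus Brain, 826 genes higher for Choroid minus Retina and 1345 for Choroid Positive over Brain Positive, against 2, 1581 and 2101. The cause of these shifts was not tested.

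The values that changed sign were all uncalled. They were Mmp16 in Brain (0.0057 with DESeq2 size factors, 0.0056 with the Wald test), Adam9 in Retina (0.0029 with both, 0.00022 with the median filter), Adam32 in Retina (-0.048 with listed totals), Adam10 for Choroid minus Brain (-0.049 with listed totals), Adam15 for Choroid minus Retina (-0.0017, -0.00062, -0.11 and -0.18 with the size factors, the Wald test, the median filter and listed totals) and Mmp15 for Retina minus Brain (-0.031 with the replicate block). Without 1 library at a time, Retina had 513 to 1540 genes lower, 6 to 12 members higher and 2 to 6 lower, and members higher numbered 1 to 2 for Retina minus Brain and 1 to 3 for Choroid minus Brain. In the same way Mmp16 in Brain ran between -0.10 and 0.091. In Retina, Adam32 ran between -0.18 and 0.20, Adam9 between -0.10 and 0.098, Mmp11 between -0.19 and 0.36, Adamtsl5 between -0.46 and 0.063 and Mmp14 between -0.33 and 0.044. For Retina minus Brain, Adamtsl4 ran between -0.13 and 0.28, Mmp15 between -0.28 and 0.15, Adam10 between -0.017 and 0.38 and Timp2 between -0.041 and 0.13. For Choroid minus Brain, Adam10 ran between -0.041 and 0.18 and Adamts10 between -0.21 and 0.33. For Choroid minus Retina, Adam15 ran between -0.12 and 0.45, Adam10 between -0.30 and 0.090 and Adam17 between -0.46 and 0.0056. For Retina Positive over Brain Positive, Adam10 ran between -0.10 and 0.32 and Adam17 between -0.12 and 0.21.

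Besides the calls given with the results, the replicate block changed those of Adam15 for Retina Positive over Brain Positive (-0.62, adjusted p = 0.0406) and of Mmp2 for Choroid Positive over Brain Positive (0.73, adjusted p = 0.0902); numbers are not known to pair tissues. It changed no other call of a member. Genes under the minimum of 50 were out of reach, and the shallow Choroid libraries list the fewest members.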
